A study of Homo sapiens with 4 samples.

Results

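Caveolins and cavins were followed as 7 genes, CAV1, CAV2, CAVIN1, CAVIN2, CAVIN3, EHD2 and PACSIN2, out of 25133 rows with a gene symbol. They were taken by symbol, and all 7 were found once under their current symbols. RNA had been sequenced in 4 libraries from the breast cancer cell line MDA-MB-231, an established human line of mesenchymal, triple-negative type. In the control group (shSCR, 2 libraries, genotype labelled WT) the cells carried lentivirus with a scrambled short hairpin. In the other group (shJARID2, 2 libraries, genotype labelled JARID2 knockdown) the virus carried a hairpin against JARID2, a subunit of Polycomb repressive complex 2. Both groups were thus infected, and they come from 1 cell line. The time after infection, any selection and the number of hairpins are not stated in these sources. The comparison asked which transcripts differ when JARID2 is depleted.

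Caveolae are flask-shaped pits of the plasma membrane that take part in membrane buffering, lipid handling and signalling. Caveolins, small hairpin proteins inserted into the inner leaflet, form the core of the pit, and cavins, which are soluble coiled-coil proteins, assemble around it as an outer coat. CAV1 and CAVIN1 are each needed for caveolae to form in most tissues, EHD2 is an ATPase that rings the neck and holds the pit at the membrane, and PACSIN2 is an F-BAR protein that senses or bends membrane during assembly.

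The caveolins were higher and the principal cavin was lower in the shJARID2 libraries. The summed FPKM of the 7 transcripts, without GC correction, moved little. CAV1 and CAV2 were at 1.95 and 2.62 times their shSCR mean, CAVIN1 was at 0.366 of it and EHD2 at 0.701 of it. CAVIN3 was at 0.817, and CAVIN2 and PACSIN2 were at 1.03 and 1.02. A correction for transcript GC content, given further on, kept the directions of CAV1, CAV2 and CAVIN1 but turned those of EHD2, CAVIN3 and CAVIN2. In bulk RNA, fewer cells that express a gene and less of its RNA per cell cannot be told apart. The set was selected on its role in caveolae and on earlier FPKM values of this same contrast, so what follows for the 7 genes is a description, and no p-value is given for them. Levels are in FPKM, which scales fragments to gene length and library size. Comparisons between genes are only approximate, since GC content, the annotated exon length and shared exon bases may also affect FPKM. Values are mean ± SD with n = 2 libraries per group. Nothing in the labels tells whether replicate libraries are separate cultures, so the spread, and the p-values given for other genes, may reflect technical variation only.

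**Figure D1:**
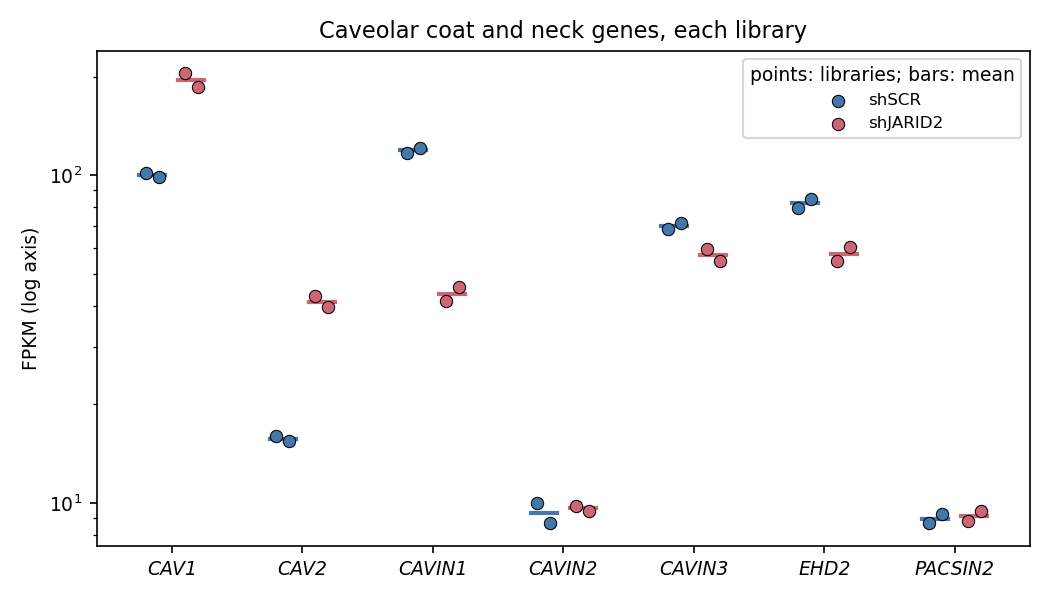
FPKM of the 7 genes (log axis) in each library, with points for libraries and short bars for group means. CAV1 and CAV2 lie higher in both shJARID2 libraries, CAVIN1, CAVIN3 and EHD2 lie lower, and the points of CAVIN2 and PACSIN2 overlap between groups.

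The hairpin's target was lower in both knockdown libraries, with JARID2 at 10.8 and 10.8 FPKM in the control libraries and 3.88 and 3.91 in the knockdown libraries. The steps of the FPKM values gave depths of about 15500000 and 16200000 counted reads in shSCR and 12900000 and 12800000 in shJARID2. Depth thus moved with the group, and its part in the results was not tested. Of 7 genes often high in this line, 6 had a mean of at least 1 FPKM. AXL was at 393 and 417 FPKM in shSCR and at 167 and 186 in shJARID2 (log2 fold change -1.19, GC-corrected -0.62). LGALS1 went the other way, from a mean of 258 FPKM in shSCR to 349 in shJARID2 (0.44, GC-corrected 0.99). CD44 also went up, from 69.0 to 78.8 FPKM (0.19, GC-corrected 0.11). FN1 went from 28.4 to 25.3 FPKM (-0.16, GC-corrected -0.11) and MET from 34.6 to 35.6 (0.04, GC-corrected -0.19). SPARC, the gene under 1 FPKM, had means of 0.111 in shSCR and 0.112 in shJARID2. Vimentin (VIM), a mesenchymal marker, was only at 3.54 and 4.20 FPKM in the control libraries and 2.10 and 2.77 in the knockdown libraries, which goes against the label, and 24.4% of its exon bases are shared with antisense genes. Of 10 luminal or epithelial breast markers, 6 had a mean of at least 1 FPKM, and the list summed to 54.5 and 57.4 FPKM in shSCR and to 27.8 and 30.3 in shJARID2. ERBB2 and the keratin genes KRT8, KRT18 and KRT19 had shSCR means of 15.6, 14.4, 13.5 and 7.68 FPKM and lower values in shJARID2 (7.08, 6.41, 7.55 and 1.21), while EPCAM went from 1.35 to 4.34 FPKM. These sums and means carry no GC correction. As log2 fold changes, the GC correction moved ERBB2 from -1.04 to -0.44, KRT8 from -1.06 to -0.55 and KRT18 from -0.77 to -0.33. It moved KRT19 from -1.98 to -1.39 and EPCAM from 1.18 to 0.99, and turned FOXA1 from -0.41 to 0.17. The oestrogen receptor gene ESR1 and the epithelial cadherin gene CDH1 were at most 0.203 FPKM in any library, with CDH1 at 0 in shSCR replicate 2. The part of these markers in the results was not tested. None of 5 endothelial, 4 adipocyte, 5 fibroblast and 4 muscle markers, from cell types rich in caveolae, reached a mean of 1 FPKM. The endothelial markers summed to 1.60 and 1.76 FPKM in shSCR and to 0.849 and 0.932 in shJARID2.

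CAV1, the structural caveolin outside muscle, lies at chr7:116524785-116561184 on the + strand of GRCh38 (GENCODE release 29). It was listed at 101 and 99.0 FPKM in the control libraries and at 205 and 186 in the knockdown libraries. Both knockdown libraries were higher than both controls, with means of 100.2 ± 1.68 and 195 ± 13.7. These levels corresponded to 6416 and 6544 reads in shSCR and 10832 and 9697 in shJARID2. CAV1 stood at the 98.7 and 98.6 percentile of tested genes in the shSCR libraries and at the 99.6 and 99.5 percentile in shJARID2. The log2 fold change of CAV1 (shJARID2 against shSCR on log2(FPKM + 1), a scale that understates changes of low genes) was 0.95 (SE 0.062).

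CAV2, which needs CAV1 to reach the plasma membrane, is the neighbouring gene at chr7:116287380-116508541 on the same strand. It was at 16.0 and 15.5 FPKM in the control libraries and at 42.7 and 39.6 in the knockdown libraries. The groups did not overlap, and CAV2 had the largest log2 fold change of the 7 genes upwards, 1.33 (SE 0.057). Its place among tested genes went from the 77.1 and 76.1 percentile to the 94.0 and 93.4 percentile. CAV2 stayed far below CAV1 in every library, but the gap was smaller after knockdown. FPKM divides by all annotated exon bases, 6926 for CAV2 and 4082 for CAV1, so long rare transcripts of CAV2 would lower its level. CAV2 FPKM was 0.158 and 0.156 of CAV1 FPKM in shSCR and 0.208 and 0.213 of it in shJARID2.

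CAVIN1, the cavin that recruits the others to the pit, lies at chr17:42402452-42423517 on the - strand. By FPKM as measured it was the most abundant of the 7 transcripts in the controls, at 117 and 121, and was at 41.4 and 45.8 in shJARID2. Both knockdown libraries lay far under both controls (119 ± 3.05 and 43.6 ± 3.08 FPKM). Its reads went from 6945 and 7521 to 2053 and 2243. The log2 fold change was -1.43 (SE 0.063), the largest downward value among the 7.

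CAVIN2, also called SDPR and known for shaping caveolar membrane, lies at chr2:191834302-191847255 on the - strand. It was at 9.99 and 8.72 FPKM in the control libraries and 9.78 and 9.48 in the knockdown libraries. The groups overlapped, with a log2 fold change of 0.04 (SE 0.081) and 392 to 500 reads per library. Both knockdown values lay between the 2 controls.

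CAVIN3, a protein kinase C delta binding cavin, lies at chr11:6318946-6320647 on the - strand. It was at 68.4 and 71.6 FPKM in the control libraries and 59.5 and 54.9 in the knockdown libraries. The knockdown libraries were lower by little (log2 fold change -0.29, SE 0.058). Of its exon bases, 33.3% are shared with AC068733.3, a transcript on the opposite strand. The counting's use of strand is not stated, so reads of that gene cannot be told apart and the value of CAVIN3 is uncertain.

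EHD2 lies at chr19:47713343-47743134 on the + strand. It was at 79.8 and 84.7 FPKM in the control libraries and 55.0 and 60.3 in the knockdown libraries. Both knockdown libraries were below both controls, with a log2 fold change of -0.51 (SE 0.065). PACSIN2, at chr22:42835412-43015145 on the - strand, was at 8.69 and 9.25 FPKM in the control libraries and 8.83 and 9.45 in the knockdown libraries. Its groups overlapped (log2 fold change 0.02, SE 0.067).

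Libraries did not overlap between groups for 2 genes higher and 3 lower of the 7. Over the 12455 tested genes, 39.8% were higher and 43.1% lower in this sense. The median log2 fold change was 0.02 over the 7 genes and -0.02 over all tested genes.

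The order of the 7 transcripts by FPKM, without GC correction, differed between the groups. In shSCR it ran CAVIN1, CAV1, EHD2, CAVIN3 and CAV2, each pair of neighbours separated by more than the spread of their libraries, and ended with CAVIN2 and PACSIN2, whose libraries overlapped. In shJARID2, CAV1 stood alone at the top. EHD2 and CAVIN3 followed with overlapping libraries, then CAVIN1 and CAV2, also overlapping. CAVIN2 and PACSIN2 were again lowest, and their closest libraries, at 9.48 and 9.45 FPKM, differed by less than the SD of either gene in that group.

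Seen within each library, cavin transcripts outweighed caveolin transcripts in the controls and the reverse was seen after knockdown. CAV1 and CAV2 together made 117 and 114 FPKM in the control libraries and 248 and 225 in the knockdown libraries. The 3 cavins together made 195 and 202 FPKM in the control libraries and 111 and 110 in the knockdown libraries. The ratio of summed caveolins to summed cavins was 0.601 and 0.568 in the controls and 2.24 and 2.04 after knockdown. CAVIN1 alone was at 1.15 and 1.23 times CAV1 in shSCR and at 0.202 and 0.247 times CAV1 in shJARID2. Against CAVIN3, its partner in the coat, CAVIN1 went from 1.71 and 1.70 to 0.696 and 0.833.

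The sum over the 7 genes was 401 and 410 FPKM in the control libraries and 422 and 405 in the knockdown libraries, with overlapping libraries. CAV1 made up 24.7% ± 0.797 of that sum in shSCR and 47.2% ± 1.94 in shJARID2. The share of CAVIN1 was 29.4% ± 0.297 in shSCR and 10.6% ± 1.05 in shJARID2. EHD2 went from 20.3% ± 0.552 to 14.0% ± 1.32, and CAV2 from 3.88% ± 0.154 to 9.95% ± 0.246. These sums, shares and ratios carry no GC correction, use the same libraries as the fold changes and are no further evidence. No GC-corrected sum was computed.

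**Figure D2:**
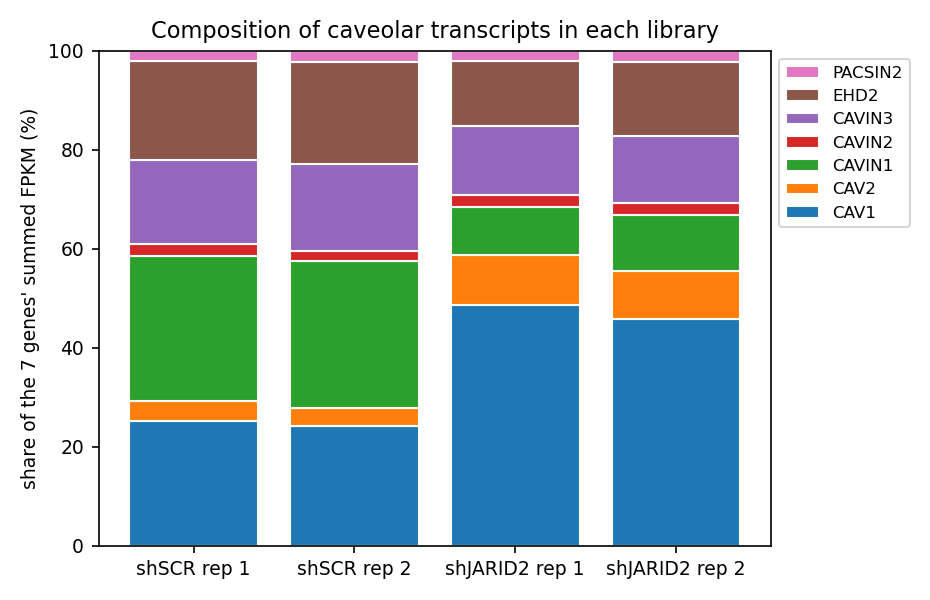
Share of each gene in the summed FPKM of the 7 genes, in percent, with 1 stacked bar per library. The CAV1 segment is at 25.3% and 24.1% in the shSCR libraries and at 48.5% and 45.8% in the shJARID2 libraries, while the CAVIN1 segment shrinks from 29.4% to 10.6% on average.

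Fold changes in these libraries followed the GC content of transcripts, and the 7 genes differ widely in it. Tested protein-coding genes in the lowest decile of GC content had a median log2 fold change of 0.47, against -0.80 in the highest decile. Median transcript GC content was 42.8% for CAV2, 43.2% for CAVIN2, 46.2% for CAV1, 54.6% for PACSIN2, 59.9% for CAVIN1, 60.3% for EHD2 and 66.7% for CAVIN3. CAVIN3 was at the 98.7 percentile of 10484 tested protein-coding genes, where few genes define the trend. A second value was therefore computed for each gene after the trend on GC content had been subtracted in every library.

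After this GC correction, CAV1, CAV2 and CAVIN1 had the same direction as before. CAV1 was at 0.80 (SE 0.058), CAV2 at 1.05 (SE 0.042) and CAVIN1 at -0.83 (SE 0.037). EHD2 turned from -0.51 to 0.11 (SE 0.038). CAVIN3 turned from -0.29 to 0.61 (SE 0.079). PACSIN2 was at 0.34 (SE 0.052) and CAVIN2 at -0.22 (SE 0.065). The direction of EHD2, CAVIN2 and CAVIN3 depended on this step.

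The distance between CAVIN1 and CAV1 was also seen on the corrected scale. The difference CAVIN1 minus CAV1 in GC-corrected log2(FPKM + 1) was -0.13 ± 0.025 in shSCR and -1.76 ± 0.139 in shJARID2. In the shSCR libraries this difference was -0.15 and -0.11. The correction keeps each gene's mean over all libraries and so does not correct levels between genes for GC content. Only the change of such a difference between groups can be read, not which gene is the higher. For CAV2 minus CAV1 the difference was -2.53 ± 0.016 in shSCR and -2.28 ± 0.050 in shJARID2. For CAVIN3 minus CAV1 it was -1.04 ± 0.0076 and -1.23 ± 0.053. The uncorrected ratio of CAVIN3 to CAV1 was 0.699 ± 0.034 in shSCR and 0.293 ± 0.0041 in shJARID2.

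**Figure D3:**
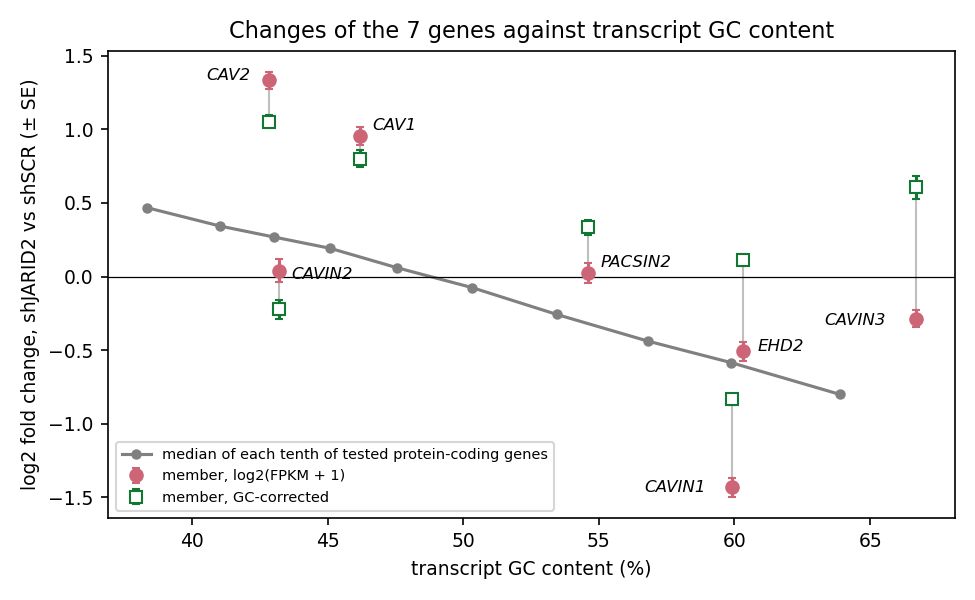
Log2 fold change (± SE) of the 7 genes against transcript GC content in percent, as measured (filled circles) and after GC correction (open squares), joined by a grey line. The grey curve gives the median of each decile of tested protein-coding genes, from 0.47 at low to -0.80 at high GC content. CAV1 and CAV2 lie above it and CAVIN1 below it, while EHD2 lies close to it.

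The upstream regions of the caveolin genes are shown because both genes were higher and lie next to each other, and those of EHD2 and CAVIN2 for comparison. RefSeq start sites on GRCh38.p14 were found for 5 of the 7 genes, with CAVIN1 and CAVIN3 not among them. Each stretch is the 250 bases before the start listed at the top for the gene, 5′ to 3′ on the gene's strand, with CG dinucleotides in capitals. They are shown since Polycomb repressive complex 2 is known for binding near islands rich in them.
CAV2 (chr7:116499488-116499737, + strand): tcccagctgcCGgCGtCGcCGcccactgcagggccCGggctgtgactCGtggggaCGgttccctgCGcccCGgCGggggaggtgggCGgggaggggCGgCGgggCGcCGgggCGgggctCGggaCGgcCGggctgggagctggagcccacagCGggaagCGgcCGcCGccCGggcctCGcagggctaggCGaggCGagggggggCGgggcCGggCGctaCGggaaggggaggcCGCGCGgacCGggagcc
CAV1 (chr7:116524759-116525008, + strand): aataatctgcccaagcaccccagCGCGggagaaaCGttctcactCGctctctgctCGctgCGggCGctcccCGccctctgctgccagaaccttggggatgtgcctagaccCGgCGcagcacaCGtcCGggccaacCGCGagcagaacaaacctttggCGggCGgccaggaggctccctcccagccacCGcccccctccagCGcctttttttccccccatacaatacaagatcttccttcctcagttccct
EHD2 (chr19:47713172-47713421, + strand): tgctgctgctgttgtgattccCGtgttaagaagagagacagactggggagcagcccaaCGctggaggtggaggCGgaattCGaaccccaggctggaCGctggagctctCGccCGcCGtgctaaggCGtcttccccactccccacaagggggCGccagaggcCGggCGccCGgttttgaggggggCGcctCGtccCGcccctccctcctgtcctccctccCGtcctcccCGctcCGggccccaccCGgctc
CAVIN2 (chr2:191847089-191847338, - strand): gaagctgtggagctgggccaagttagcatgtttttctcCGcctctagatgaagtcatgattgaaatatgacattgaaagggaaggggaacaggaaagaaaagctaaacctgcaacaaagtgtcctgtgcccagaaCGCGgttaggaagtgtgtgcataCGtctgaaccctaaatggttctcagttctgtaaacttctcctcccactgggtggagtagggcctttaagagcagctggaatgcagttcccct

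The stretch before CAV2 holds 35 CG dinucleotides, a number reached by 5.64% of 27305 promoters, and its GC content is 83.2%. That of CAV1 holds 18 (reached by 36.5% of promoters) and that of EHD2 holds 20 (reached by 32.1%). CAVIN2 has only 4, fewer than the median of 11. PACSIN2, whose stretch is not printed, also has 4, with a GC content of 46.4%. The GC box motif GGGCGG, searched on both strands as GGGCGG and CCGCCC, occurred 6 times for CAV2, 3 times for CAV1, once for EHD2 and not for CAVIN2. It was present in 42.3% of all promoters, and it overlaps the CG dinucleotides. All 250 bases for CAV2, 224 for CAV1, 167 for CAVIN2 and 79 for EHD2 fall within exons of other transcripts of the same gene in GENCODE. The GC content of the stretch was 63.6% for CAV1, 69.6% for EHD2 and 48% for CAVIN2, against a median of 58% over all promoters. CAV1 was thus nearer to that median than CAV2, and below EHD2. These matches describe the sequence, and no binding or methylation was measured here.

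The genes around CAV1 and CAV2 on chromosome 7 were read out from a window of 500 kb on either side, which held 8 rows with a symbol. Outside the 7 genes, a gene is said to rise, fall or pass where the adjusted p was below 0.05 in a limma fit across all tested genes. Of the 6 that are not caveolins, TFEC was at most 0.015 FPKM and was not tested. TES, a focal adhesion protein gene on the CAV2 side, went from 16.7 and 18.2 FPKM to 31.1 and 30.0 and rose by 0.78 on the log2 scale (SE 0.061, adjusted p = 0.0017, limma; GC-corrected 0.57). CAPZA2, which encodes an actin capping subunit, rose from 5.77 and 5.46 FPKM to 12.4 and 11.7 (0.98, SE 0.065, adjusted p = 0.0014, limma; GC-corrected 0.61).

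Between CAV1 and CAPZA2 lies MET, the hepatocyte growth factor receptor gene. MET was at 35.1 and 34.1 FPKM in the control libraries and 35.1 and 36.2 in the knockdown libraries, with overlapping libraries (0.04 on the log2 scale, adjusted p = 0.47, limma). After GC correction MET was at -0.19 and passed downwards. ST7 passed upwards as measured (0.37, adjusted p = 0.019, limma) but not after GC correction (0.22) or without either shSCR library (0.40 and 0.35) or the library shJARID2 replicate 2 (0.30), and 22.0% of its exon bases are shared with other genes. TPM3P1, a pseudogene, did not pass (-0.20).

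**Figure D4:**
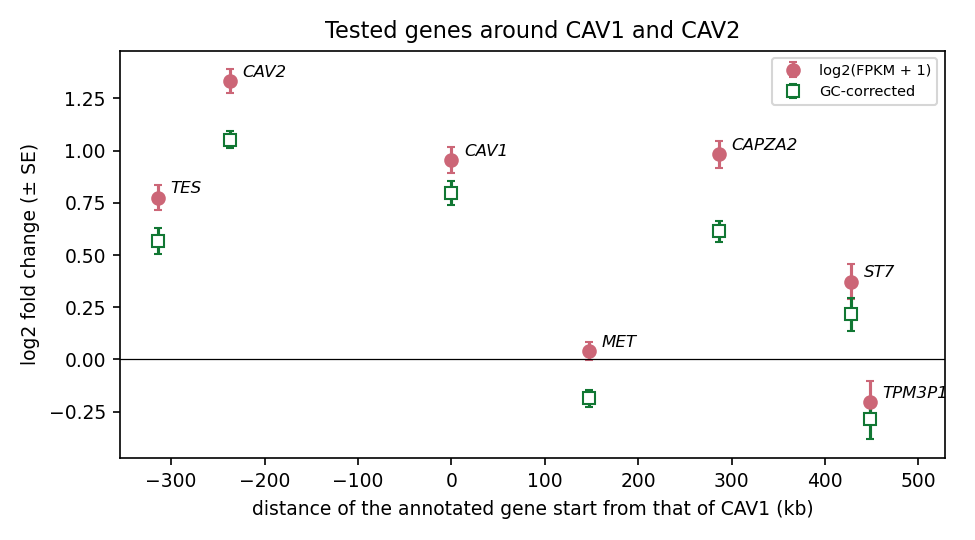
Log2 fold change (± SE) of tested genes around CAV1 and CAV2 against the distance of each annotated gene start from that of CAV1 in kb, as measured (circles) and GC-corrected (squares). TES, CAV2, CAV1 and CAPZA2 lie above 0.5 by both measures, with MET between them near 0.

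Genes that act with the coat were examined as a list of 33 caveolar partners, of which 26 were tested. As measured, 5 rose and 17 fell, against 28.0% and 31.6% of all tested genes, with a median log2 fold change of -0.50 against -0.02 over all tested genes. After GC correction 3 rose and 11 fell, with a median of -0.21, against 22.8% higher and 21.5% lower among the 12097 genes with a GC value. Without shSCR replicate 1 the counts were 3 and 11, where 2499 and 2754 of all tested genes passed, and without shSCR replicate 2 they were 2 and 11, where 2168 and 2462 passed.

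The paralogs of the members that were expressed fell as measured. EHD1, an ATPase of endocytic recycling, went from 32.8 and 33.6 FPKM to 17.2 and 17.8 (log2 fold change -0.89, adjusted p = 0.0014, limma; GC-corrected -0.22, where it still passed). PACSIN3, a PACSIN2 relative known for muscle caveolae, went from 15.8 and 16.0 FPKM to 6.99 and 5.53 (-1.23, adjusted p = 0.0020, limma; GC-corrected -0.45, which did not pass). EHD4 fell by 0.56 on the log2 scale, a call that was lost after GC correction and without either shSCR library (-0.63 and -0.49). CAV3 and CAVIN4, the muscle forms, and EHD3 and PACSIN1 were at most 0.827 FPKM in any library and were not tested.

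Of the 3 dynamins that can sever the neck of a pit, 2 fell as measured and 1 after GC correction. Over all genes so tested, 31.6% fell as measured and 21.5% after GC correction. DNM2, the ubiquitous form, went from 16.2 and 17.3 FPKM to 7.90 and 8.92 (-0.92, adjusted p = 0.0018, limma; GC-corrected -0.41). FLNA, a filamin that ties CAV1 to actin, went from 224 and 237 FPKM to 101 and 107 (-1.14, adjusted p = 0.0014, limma; GC-corrected -0.44). Both passed by both measures.

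Of 7 tested kinases and scaffolds acting on caveolin, FLNA included, 5 fell and 1 rose as measured, where 31.6% and 28.0% of all tested genes did. The counts were the same after GC correction (21.5% and 22.8% of all), with YES1 in place of CSK among the falls. SRC, which phosphorylates CAV1 on tyrosine, fell by 0.80 on the log2 scale (adjusted p = 0.0017, limma; GC-corrected -0.23), and ABL1 by 1.01 (adjusted p = 0.0014, limma; GC-corrected -0.58). Both passed by both measures. ROR1, a receptor that holds CAVIN1 and CAV1 together at the membrane, was among the few rises, from 6.57 and 5.81 FPKM to 8.64 and 8.54 (0.42, adjusted p = 0.011, limma; GC-corrected 0.33). Its call was lost without shSCR replicate 2 (0.34). Of 10 tested receptors and enzymes reported in caveolae, 3 rose and 6 fell as measured (28.0% and 31.6% of all tested genes). After GC correction 1 rose and 4 fell (22.8% and 21.5% of all). That 1 rise was BMPR2, a BMP receptor, which was also higher as measured (0.72, adjusted p = 0.0014, limma; GC-corrected 0.30).

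The flotillins, which build raft domains without caveolins, gave opposite measured directions. FLOT1 was at 32.8 and 34.4 FPKM in the control libraries and 38.9 and 37.7 in the knockdown libraries (0.18, adjusted p = 0.028, limma; GC-corrected 0.60), and its measured call was lost when any 1 library was left out. FLOT2 fell from 27.5 and 28.0 FPKM to 15.0 and 18.0 (-0.72, adjusted p = 0.0043, limma), but did not pass after GC correction (-0.21).

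The clathrin route, the other main coat of endocytosis, was set beside these genes. Of 26 tested, 7 rose and 14 fell (median log2 fold change -0.30), where 28.0% and 31.6% of all tested genes did. After GC correction 5 rose and 7 fell (median 0.01), against 22.8% and 21.5% of all, so the rises as measured and both corrected counts lie near those shares. These are not all the same genes. AP2S1 (-0.37 as measured, 0.14 corrected) and HIP1R (-0.33 and 0.36) fell as measured but rose after correction. AP2B1 fell only after correction (-0.08 and -0.22). Without shSCR replicate 2, 4 rose and 10 fell. Its heavy chain gene CLTC rose from 121 and 114 FPKM to 182 and 175 (0.60, adjusted p = 0.0017, limma; GC-corrected 0.30). The light chain gene CLTB fell from 40.6 and 41.0 to 14.1 and 16.5 (-1.36, adjusted p = 0.0014, limma; GC-corrected -0.61), while CLTA did not pass (-0.22). EPN1, an epsin, fell by 1.12 on the log2 scale (GC-corrected -0.50) and SH3GL1, an endophilin, by 0.95 (GC-corrected -0.30). The falls of BIN1 (-0.83), GAK (-0.76) and AP2A1 (-0.72) did not pass after GC correction. Genes of this list moved both ways, as did all tested genes (28.0% higher and 31.6% lower as measured). No difference between the lists was tested.

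**Figure D5:**
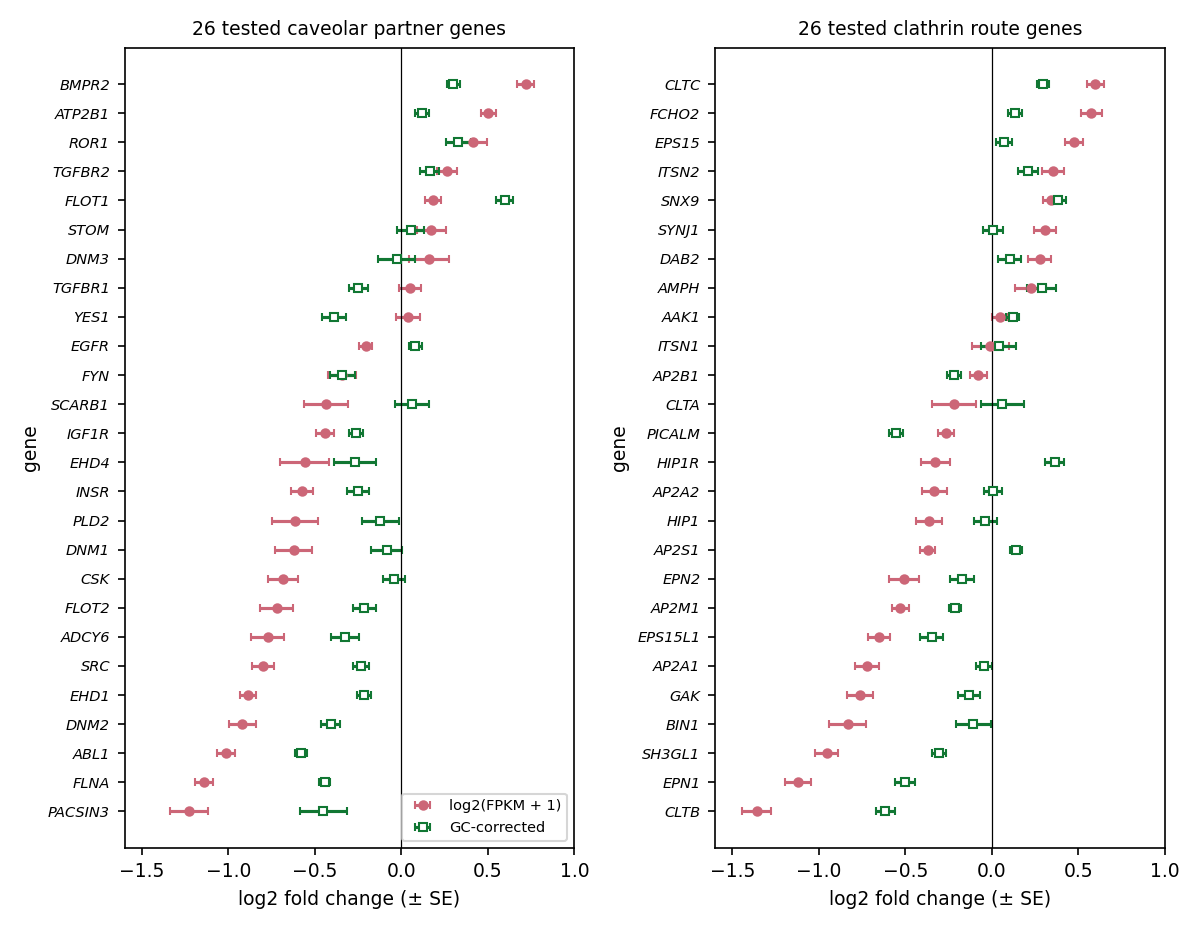
Log2 fold change (± SE) of the 26 tested caveolar partner genes (left) and the 26 tested clathrin route genes (right), as measured (circles) and GC-corrected (squares), ordered by the measured value. Most squares lie nearer to 0 than their circles. CLTC, BMPR2, ROR1, FLOT1, SNX9 and ITSN2 are among the genes above 0 by both.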

How the data were processed

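Reads were handled by the submitters with Trimmomatic, HISAT2, SAMtools and featureCounts, per the submitters' processing notes. No version, genome build, annotation or strand setting is stated in these sources. Each library's file holds FPKM, per the file headers, and the 60420 of its 85553 rows without a symbol were left out. Of the rows with a symbol, 24306 matched GENCODE release 29 (GRCh38). FPKM times exon length fell within 0.05 of a whole read for 95.9% to 96.3% of values up to 20 reads, which gave the depths. Rows with a mean of at least 1 FPKM were tested with limma 3.58.1 in R 4.3.3 on log2(FPKM + 1), with trended prior variance and Benjamini-Hochberg adjustment over all 12455. The GC correction subtracted from each library a loess (span 0.3) of deviations on median transcript GC content. The steps were also run on simulated reads, with the same noise setting for every gene and either no GC trend or a linear one. Such a run cannot tell whether the correction holds at the GC content of CAVIN3.

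The 7 genes, the lists and the alternatives were chosen with earlier results of these data known. Named genes were the 7, JARID2, up to 6 called genes with the largest change per list, expressed paralogs, ROR1, DNM2, SRC, FLOT1 and FLOT2, genes within 500 kb of CAV1 or CAV2, and the 3 genes nearest in pattern to CAV1, CAV2 and CAVIN1. BMPR2, CLTC, CLTA, AP2S1, HIP1R and AP2B1, and markers singled out in the text, were chosen after their values were seen. Groups and replicate numbers come from the labels. Exact permutation of 2 against 2 libraries cannot reach the threshold, so no such test was made.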

Additional observations from a re-analysis of the deposited data

How the results depend on the processing

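CAV1, CAV2 and CAVIN1 ran over the 14 alternatives from 0.80 to 1.02, from 1.05 to 1.43 and from -1.51 to -0.83 on the log2 scale, a description of genes chosen on this contrast. The GC correction moved the others: CAVIN2 to -0.22, CAVIN3 to 0.61, EHD2 to 0.11, PACSIN2 to 0.34 and MET to -0.19. The replicate block, in this balanced layout, and the filters on low values cannot move a log2 fold change. These alternatives only repeat an estimate, also for CAV1, CAV2 and CAVIN1. With the block added to the GC correction, CAVIN3 (0.61), EHD2 (0.11), PACSIN2 (0.34) and MET (-0.19) were thus bound to keep their values. The same holds for CAVIN3 with no filter on low values (-0.29). Leaving out 1 library gave CAVIN3 from -0.34 to -0.23, 2168 to 3068 genes higher and 2462 to 3763 lower, 2 to 5 partner genes higher and 11 to 17 lower, and 4 to 6 clathrin genes higher. Among these, the lowest counts of all genes were those without shSCR replicate 2. The GC correction left 2598 genes lower (2329 with the block). It left 3 partner genes higher and 11 lower (3 and 10 with the block), and 7 clathrin genes lower (7 with the block, where 3 were higher). With no filter 3 partner genes were higher.

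The replicate numbers share only a number, with a correlation of the replicate differences of 0.029 across genes, so they were not taken as pairs. With the replicate block alone 3380 genes were higher and 3831 lower. The cause of these changes was not tested. With 2 libraries a group, the spread rests on few values, and the depth of CAVIN2 was 392 to 500 reads per library.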

Other observations

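The tested genes with a mean of at least 10 FPKM whose pattern over the 4 libraries lay closest to a member were looked up (Euclidean distance of centred log2(FPKM + 1), 4611 candidates). With 4 libraries in 2 groups, such likeness describes little more than the size of the change. For CAV1 the nearest were FAM49B (distance 0.024), SOCS4 (0.029) and NEK7 (0.036), which were higher by 0.94, 0.98 and 0.94 (GC-corrected 0.65, 0.48 and 0.50). For CAV2 they were TMTC3 (0.039), SH3BGRL (0.050) and MT1E (0.055). MT1E, a metallothionein gene, went from 95.4 and 95.0 FPKM to 245 and 224. For CAVIN1 they were SLC9A3R1 (0.017), FBXL19 (0.024) and UBE2S (0.054), all lower, and SLC9A3R1, a membrane scaffold gene, went from 46.4 and 48.3 FPKM to 16.3 and 18.0.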
